A study of Rattus norvegicus with 24 samples.

Results

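The genes described here are the transcription factor NRF2 (gene Nfe2l2), its repressor KEAP1 (Keap1) and 8 genes that NRF2 switches on, Nqo1, Gclc, Gclm, Hmox1, Txnrd1, Srxn1, Aldh3a1 and Gsta3. They were chosen by name, and all 10 were found among the 30667 rows of the expression table. The series is a rat lung cancer model, and every sample carries the label smoky coal, a fuel known for smoke with much polycyclic aromatic hydrocarbon. There are 24 mRNA sequencing samples of lung tissue, and each title joins 1 of the letters A, B, C and G to 1 of the numbers 1 to 6. The letters were taken as 4 groups of 6 samples and the numbers as 6 sets of 4. Neither is explained: no treatment, dose, time, control, strain, age, sex or shared animal is given for any letter or number in the sources used here. It is not stated that samples of a letter came from separate animals, so p-values measure the spread between these samples.

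NRF2 is held at a low level by KEAP1, which binds it and hands it to a ubiquitin ligase. Electrophiles and oxidants modify cysteines of KEAP1, NRF2 then accumulates, pairs with a small MAF protein and binds antioxidant response elements. Its targets make glutathione, reduce quinones and thiols, and conjugate reactive compounds, and in the lung they are a main defence against smoke. Several of them, Nqo1 and Aldh3a1 among them, are also targets of the aryl hydrocarbon receptor (AhR), the sensor of polycyclic aromatic hydrocarbons.

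Promoter windows of the rat genes, 250 bases before to 50 bases after the annotated start, were read from RefSeq (build GRCr8), which held a window for 8 of the 10 genes; Hmox1 and Aldh3a1 had no entry. They were searched on both strands for the core of the antioxidant response element (TGACNNNGC), for the AP-1 site TGAGTCA and for the core of the xenobiotic response element bound by the AhR (GCGTG). The first was present in 4 of 8 genes, Nfe2l2, Gclm, Gsta3 and Txnrd1, and in 12.1% of 33469 rat promoter windows of this length. The AP-1 letters were present in Srxn1, where they occurred at 2 places, and in 4.63% of all windows. The AhR core was present in 6 of 8 genes, Nqo1, Gclc, Gsta3, Keap1, Srxn1 and Txnrd1, and in 29.7% of all windows. The windows of the 5 genes that the results below turn on most are shown 5′ to 3′ on the gene's strand, with the antioxidant response element core or the AP-1 letters in capitals, and for Nqo1 the AhR core, which lies on the opposite strand. The element in Gclm is also on the opposite strand. They lie at chr19:52220218-52220517 on the minus strand (Nqo1), chr3:81028950-81029249 on the minus strand (Nfe2l2), chr2:213031885-213032184 on the plus strand (Gclm), chr9:31154739-31155038 on the plus strand (Gsta3, the first of 2 annotated starts) and chr3:161064562-161064861 on the plus strand (Srxn1). The AhR core is marked for Nqo1 alone, and Srxn1, also shown, held it too, unmarked. Elements outside these windows were not searched for, so a gene without a match here may have one farther away. A match is a description of the letters and no evidence of binding.
Nqo1: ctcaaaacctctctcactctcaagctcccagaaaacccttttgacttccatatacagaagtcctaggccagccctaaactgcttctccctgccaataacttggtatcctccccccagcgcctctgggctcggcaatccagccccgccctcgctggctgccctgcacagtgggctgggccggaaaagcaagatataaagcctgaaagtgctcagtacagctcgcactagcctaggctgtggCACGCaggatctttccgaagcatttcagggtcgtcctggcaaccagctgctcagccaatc
Nfe2l2: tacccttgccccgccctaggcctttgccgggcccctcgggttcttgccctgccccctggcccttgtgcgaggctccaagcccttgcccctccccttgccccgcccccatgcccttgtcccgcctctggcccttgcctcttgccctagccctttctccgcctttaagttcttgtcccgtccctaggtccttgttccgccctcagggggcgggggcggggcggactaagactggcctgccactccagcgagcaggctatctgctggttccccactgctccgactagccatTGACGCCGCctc
Gclm: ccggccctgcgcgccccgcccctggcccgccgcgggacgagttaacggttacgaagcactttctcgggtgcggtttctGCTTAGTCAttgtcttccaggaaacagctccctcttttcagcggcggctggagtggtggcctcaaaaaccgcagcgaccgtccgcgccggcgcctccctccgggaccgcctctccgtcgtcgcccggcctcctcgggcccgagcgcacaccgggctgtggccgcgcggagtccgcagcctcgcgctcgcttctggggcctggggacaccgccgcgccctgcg
Gsta3: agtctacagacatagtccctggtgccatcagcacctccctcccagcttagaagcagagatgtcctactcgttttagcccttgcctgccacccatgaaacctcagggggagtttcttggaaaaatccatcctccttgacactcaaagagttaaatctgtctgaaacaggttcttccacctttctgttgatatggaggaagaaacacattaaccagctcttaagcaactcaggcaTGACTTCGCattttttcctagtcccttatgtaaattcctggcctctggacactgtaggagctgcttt
Srxn1: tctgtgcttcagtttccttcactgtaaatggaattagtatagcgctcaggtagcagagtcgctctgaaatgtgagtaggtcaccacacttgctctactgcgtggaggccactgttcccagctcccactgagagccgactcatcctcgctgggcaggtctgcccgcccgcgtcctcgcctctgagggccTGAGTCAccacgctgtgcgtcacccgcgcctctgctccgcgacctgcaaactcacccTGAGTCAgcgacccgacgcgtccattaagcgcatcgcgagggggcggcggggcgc

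Values are the authors' normalized read counts per gene, which summed to 61717516 to 66007148 per sample. Sequencing depth before normalization is unknown. Alveolar type 2 and type 1 cell genes were detected throughout, with all 8 listed genes of each present and summed levels of 1234232 to 1874316 and 264780 to 471125 normalized counts. The submitters' processing notes name the mouse build GRCm38, and 37.6% of the row names have the form of mouse gene-model names, against 3 rat RefSeq symbols. Levels of different genes are therefore not compared, and Gsta3, which has close relatives in its family, is uncertain. Sample A4 stood apart by genes of squamous and oesophageal epithelium (summed 19033 normalized counts, at most 1966 in the other samples) and skeletal muscle (78416, at most 19194 in the others, that of B4), and A2 by neutrophil genes (42577, at most 26610 elsewhere, that of C2). In bulk tissue, fewer cells of a type and less RNA per cell cannot be told apart.

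The first comparison asked whether these genes differed between the letters. None of the 10 passed the threshold of an adjusted p of 0.05 in limma's F test over the 4 letters, where 0.00652% of all genes passed. At an unadjusted p under 0.05 there were 2 genes, Nqo1 and Nfe2l2, with 3.91% of all genes. Both were lowest in G.

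Nqo1 encodes a quinone reductase that is a standard readout of NRF2 activity. Its normalized counts had a lowest, median and highest value of 2339, 2828 and 4368 in A, 2432, 3078 and 4312 in B, 2604, 2988 and 3674 in C, and 2062, 2277 and 2553 in G. The 6 G samples were close together and all lay below the median of every other letter, although the ranges overlapped. The mean was 2281 ± 169 in G (SD, n = 6) and 3171 ± 651 over A, B and C together (n = 18). The log2 fold change of G was -0.43 against A (SE 0.14), -0.51 against B (SE 0.14) and -0.42 against C (SE 0.14). By limma the adjusted p-values were 0.441, 1 and 0.9998, so no contrast passed in this model, which has no term for the sample number. With the number as a block, Nqo1 passed in G against A (limma adjusted p = 0.0263), where 391 of 30667 genes did. It did not pass against B or C, where only 2 and 11 of all genes did. The labels state no pairing by number.

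Compared number by number, Nqo1 was lower in the G sample than in the A, B and C samples of the same number in 6 of 6 numbers, a pattern found in 0.300% of all genes. The gap was uneven. In number 4, G had 2062 normalized counts where A, B and C had 3725, 4312 and 3674, which is 47.2% below their mean. In number 5, G had 2553 where the others had 4368, 4174 and 3590, 36.9% below. For numbers 1, 2, 3 and 6 the G sample lay 12.92%, 10.99%, 22.69% and 24.32% below the mean of the other 3. In A, B and C the samples numbered 4 and 5 held the highest 2 Nqo1 values of their letter, with a mean 1.512, 1.496 and 1.298 times that of the other 4 samples. In G this ratio was 1.02, and G4 was the lowest sample of all 24. Whether the gap differed between numbers was not tested, as each letter has 1 sample per number and these numbers were picked after their values were seen. Without the samples numbered 4 and 5, the log2 fold change of G against A, B and C together was -0.28, compared with -0.45 in all samples.

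**Figure D1:**
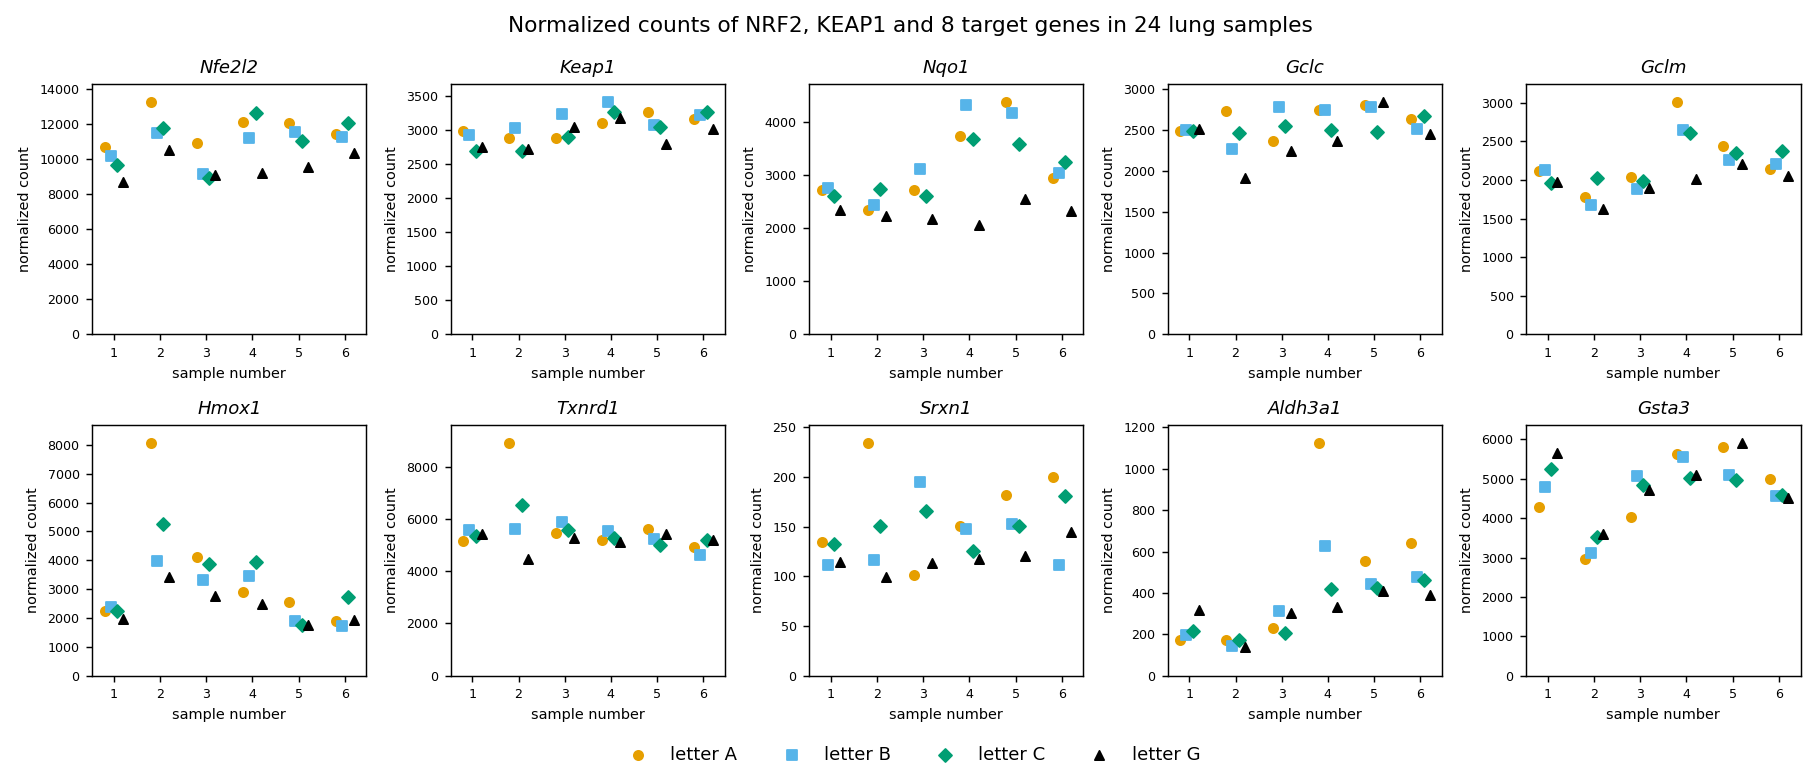
Normalized counts (vertical axes, from 0) of the 10 genes in each sample, by sample number (horizontal axes) and letter (colour and shape); every point is 1 sample. For Nqo1 the G samples stay between 2062 and 2553 while A, B and C reach 3590 to 4368 in numbers 4 and 5; Hmox1 is highest and Gsta3 lowest in number 2 of each letter.

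Nfe2l2 itself, the gene of NRF2, had a lowest, median and highest count of 10727, 11761 and 13262 in A, 9136, 11221 and 11560 in B, 8938, 11408 and 12644 in C, and 8696, 9368 and 10523 in G. Every G sample lay below the lowest A sample, and the G range overlapped those of B and C. Log2 fold changes of G were -0.30 against A (SE 0.08), -0.17 against B and -0.20 against C, with limma adjusted p-values of 0.301, 1 and 0.9998. With the number as a block, Nfe2l2 passed against A (limma adjusted p = 0.0076), where 391 of 30667 genes did. It did not pass against B or C, where 2 and 11 of all genes did. G was lower in 6, 6 and 5 of 6 same-number comparisons with A, B and C. Of all genes, 3.65% and 2.71% were lower in 6 of 6 against A and B, and 14.1% in at least 5 of 6 against C. Keap1, the repressor, differed less: its mean ranged only from 2920 ± 187 normalized counts in G to 3151 ± 172 in B (SD, n = 6), and the 95% confidence interval of its log2 fold change in G against A, B and C together ran from -0.17 to 0.03.

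Gclc and Gclm encode the catalytic and modifier subunits of the enzyme that starts glutathione synthesis. Gclc averaged 2386 ± 309 normalized counts in G and 2581 ± 157 over the 18 other samples, and Gclm 1959 ± 192 and 2202 ± 330. Their log2 fold changes in G against the other letters together were -0.12 (95% confidence interval -0.24 to 0.00) and -0.16 (-0.35 to 0.03). Both intervals hold 0, but this model has no number term, so their width includes differences between numbers. Those held 70.4% of the variance of Gclm and 30.7% of that of Gclc. At the same number, Gclm was lower in G than in A, B and C in 6, 5 and 5 of 6 cases. Of all genes, 3.65% were lower in 6 of 6 against A, and 14.1% in at least 5 of 6 against B and likewise against C. For Gclc it was 4 of 6 against each letter, for which no share of all genes was counted. Neither gene passed after adjustment in any of 37 alternatives, a fit with a number term among them.

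Srxn1 encodes sulfiredoxin, which restores overoxidized peroxiredoxins, and Txnrd1 the cytosolic thioredoxin reductase. Srxn1 had a lowest, median and highest count of 101, 166 and 234 in A, 111, 132 and 195 in B, 126, 150 and 181 in C, and 99.6, 116 and 145 in G. G contained the lowest sample, and all 4 ranges overlapped. The log2 fold change of G was -0.45 against A, -0.21 against B and -0.35 against C, with limma adjusted p-values of 0.489, 1 and 0.9998. Txnrd1 averaged 5163 ± 358 normalized counts in G and 5598 ± 922 in the other letters, with an interval of the log2 fold change from -0.28 to 0.07.

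Hmox1 encodes haem oxygenase 1, which breaks down haem and is abundant in macrophages; Aldh3a1 encodes an aldehyde dehydrogenase of surface epithelia, and Gsta3 a glutathione S-transferase. Their log2 fold changes in G against the other 3 letters together were -0.35 (95% confidence interval -0.86 to 0.16), -0.14 (-0.87 to 0.59) and 0.08 (-0.18 to 0.34). All 3 intervals hold 0, and those of Hmox1 and Aldh3a1 also hold decreases larger than that of Nqo1. A difference of that size was thus not resolved for them in this model, which has no term for the sample number. Of the variance of Hmox1 and Aldh3a1, 74.87% and 78.75% lay between numbers.

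**Figure D2:**
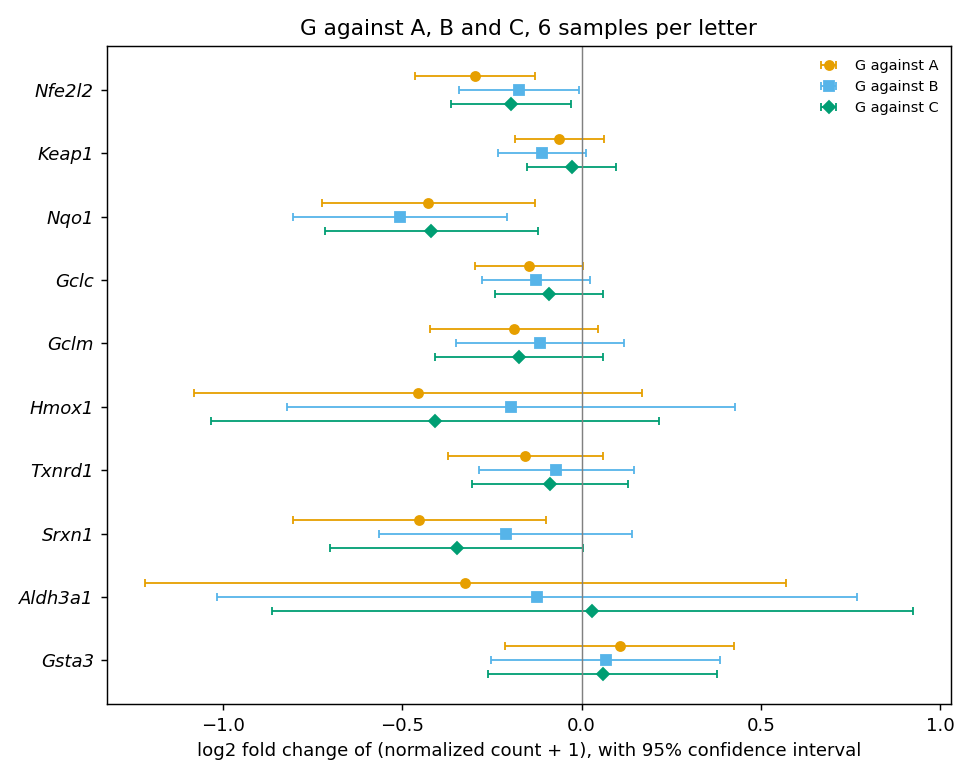
Log2 fold change of normalized count + 1 in G against A, B and C for each gene (points) with its 95% confidence interval (bars), from the limma fit to all 24 samples. Only for Nqo1 and Nfe2l2 do all 3 intervals lie below 0, with Nqo1 between -0.42 and -0.51, and neither passed after adjustment over all genes in this model without a number term. With the number as a block, both passed against A, where 391 of 30667 genes did, and not against B or C, where 2 and 11 did.

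As a group, 9 of the 10 genes had a log2 fold change under 0 in G against A, 9 of 10 against B and 8 of 10 against C, where 51.2%, 49.9% and 50.1% of all genes did. Against A, B and C together it was 9 of 10, with 50.4% of all genes, and the median of the 10 was -0.15 compared with -0.001 over all genes. These contrasts share the G samples and the genes are not independent, so the counts are a description. The contrast with A, B and C together was also chosen with earlier results of these data known, in which G differed most. At an adjusted p under 0.05, 0 of 10 passed in G against A, B, C or the 3 together, where 0.00652%, 0.00326%, 0.00652% and 0.00652% of all genes did. At an unadjusted p under 0.05 the numbers were 3 (Nfe2l2, Nqo1 and Srxn1), 2 and 2 (Nfe2l2 and Nqo1 in each), and 3, all lower in G, with 8.15%, 3.67%, 4.03% and 6.47% of all genes. Without A2 and A4, again 0 passed after adjustment. With the number as a block, Nqo1 and Nfe2l2 passed in G against A and against the 3 together, where 391 and 200 of 30667 genes did.

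Between A, B and C, 0 of 10 genes passed in any pair, and 0 were at an unadjusted p under 0.05. Of all genes, 0.00% passed in B against A, 0.00% in C against A and 0.00% in C against B, and 3.58%, 2.98% and 1.82% had an unadjusted p under 0.05. With the number as a block, again 0 of 10 passed in each pair. For Nqo1 the 95% confidence intervals of the log2 fold change were -0.22 to 0.38 (B against A), -0.31 to 0.29 (C against A) and -0.39 to 0.21 (C against B). They come from the model without a number term, so their width includes differences between numbers. Those held 41.5% of the variance of Nqo1. The lower ends of these intervals lay nearer to 0 than the log2 fold changes of G, while smaller differences of either sign remain within them.

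The second comparison asked whether the genes differed between the numbers, with the letter in the model. Of the 10 genes, 7 passed limma's F test over the 6 numbers at an adjusted p under 0.05: Hmox1, Gsta3, Aldh3a1, Gclm, Nfe2l2, Nqo1 and Keap1. Numbers separate much of the table, and 31.5% of all genes passed the same test. Among genes with a mean of at least 10 normalized counts, as all 10 have, 10245 of 21922 passed. Gclc, Txnrd1 and Srxn1 did not pass (limma adjusted p = 0.248, 0.342 and 0.771). The share of variance in log2 counts between numbers ran from 11.3% for Srxn1 to 82.9% for Gsta3, with a median of 50.6% over the 10 genes and 37.1% over all genes. Between letters the share was highest for Nfe2l2 (40.7%) and Nqo1 (40.0%), where the median of all genes was 9.45%.

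**Figure D3:**
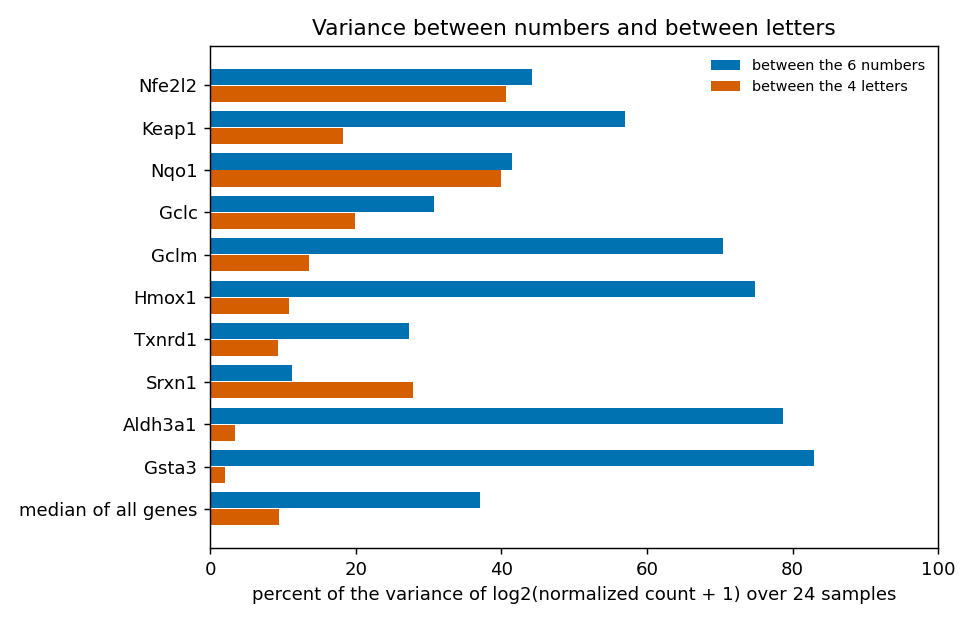
Percent of the variance of log2 normalized counts over 24 samples that lies between the 6 numbers (blue) and between the 4 letters (orange), for each gene and for the median of all genes. Gsta3, Aldh3a1, Hmox1 and Gclm vary mainly between numbers (70.4% to 82.9%), while Nfe2l2 and Nqo1 have similar shares for both.

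Hmox1 was highest in the sample numbered 2 of every letter. A2, B2, C2 and G2 had 8048, 3967, 5239 and 3404 normalized counts, and the mean was 5164 ± 2070 (SD, n = 4). In numbers 5 and 6 the 8 samples had 1718 to 2731 normalized counts, below every sample numbered 2. The limma adjusted p over numbers was 3.15e-05, and 2.35e-05 without A2. Summed levels of 10 macrophage genes were 53218 to 73808 in number 2 and 66484 to 78242 in number 3, above the 40927 to 52768 of numbers 1, 5 and 6, and 45367 to 60484 in number 4. Those of 8 neutrophil genes were 7243 to 42577 in number 2, and 4065 to 17352 in the other numbers. All genes of both lists had a value above 0 in every number, although Marco, of the macrophage list, reached at most 9.72 normalized counts. The part of these lists in the Hmox1 values was not tested.

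Gsta3 was lowest in the sample numbered 2 of every letter, with 2954, 3126, 3510 and 3590 normalized counts in A2, B2, C2 and G2. The other 20 samples had 4035 to 5897. Its limma adjusted p over numbers was 4.58e-05, and it was 0.135 when the samples numbered 2 were left out, so the call rests on them. Aldh3a1 had 172, 144, 171 and 139 normalized counts in A2, B2, C2 and G2, and 172 to 317 in numbers 1 and 3. In numbers 4, 5 and 6 it had 332 to 1122, with no overlap (adjusted p = 7.74e-05, limma). The highest value, 1122, was that of A4, the sample with squamous and skeletal muscle genes. Without A4 the adjusted p of Aldh3a1 was 3.42e-05.

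Gclm had its highest mean in number 4, with 3006, 2646, 2607 and 2018 normalized counts in A4, B4, C4 and G4, and its lowest mean in number 2, with 1775, 1678, 2024 and 1629. G4 lay apart from the other 3, below every sample numbered 5. The limma adjusted p of Gclm over numbers was 0.000278, and 0.000546 without A4. Summed levels of 7 club cell genes, markers of the secretory cells of the airway, were 607239 to 745222 in number 4, 544865 to 665866 in number 5 and 344256 to 473818 in number 2. They were 418267 to 507947 in number 1, 426454 to 540903 in number 3 and 482699 to 612879 in number 6. G4 had 653176, above the 607239 of C4. All 7 club cell genes were detected in every number, and their part in the Gsta3, Aldh3a1 and Gclm values was not tested.

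Nfe2l2 was lowest in numbers 1 and 3 (means of 9820 ± 860 and 9524 ± 945 normalized counts, SD, n = 4) and highest in number 2 (11766 ± 1134), with a limma adjusted p of 0.00209. Keap1 ranged from 2834 ± 155 in number 2 to 3240 ± 134 in number 4 (adjusted p = 0.0216). Its call was lost without the samples numbered 2 (0.0650), without those numbered 4 and 5 (0.103) and in the letters A, B and C alone (0.0939). Nqo1 had means from 2433 ± 218 in number 2 to 3671 ± 815 in number 5 (adjusted p = 0.00243), and its call was lost without numbers 4 and 5 (0.126). Txnrd1 had 8901 normalized counts in A2 and 4480 in G2, its highest and lowest value. Without G2 it passed the test over numbers (limma adjusted p = 0.0165).

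Relations between the genes were examined for 7 pairs over the 24 samples, with permutation tests adjusted over the 7. Samples that share a number are not independent, so each value is also given after removal of letter and number means. Nqo1 and Cyp1a1, the AhR target that oxidizes polycyclic aromatic hydrocarbons, had a Pearson r of 0.653 and a Spearman rho of 0.663 (permutation p = 0.00063 and 0.00059, adjusted 0.00273 for r). Without A5 and B4, the samples farthest from the median, r was 0.576. It was 0.72, 0.434 and 0.666 within A, B and C and -0.443 within G (n = 6 each), and 0.803 after removal of letter and number means. For Nqo1 and Aldh3a1 r was 0.639 and rho 0.637 (permutation p = 0.00078 and 0.00094, adjusted 0.00273 for r), 0.573 without A5 and B4, 0.345 to 0.9 within letters and 0.546 after removal of both means.

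Gclc and Gclm, whose products form 1 enzyme, had an r of 0.588 and a rho of 0.5 (permutation p = 0.00305 and 0.0146, adjusted 0.00534 for r). Without G2 and G5 r was 0.491, it was 0.238 to 0.965 within letters, and 0.208 after removal of letter and number means. Nqo1 and Gclc had an r of 0.601 and a rho of 0.615 (permutation p = 0.00165 and 0.00176, adjusted 0.00385 for r), 0.533 without A5 and B4, 0.0982 to 0.842 within letters, and 0.0304 after removal of both means. Nfe2l2 and Nqo1 had an r of 0.517 and a rho of 0.548 (permutation p = 0.0105 and 0.00653, adjusted 0.0123 for r). It was 0.485 without C3 and G1, 0.0561 to 0.717 within letters and 0.386 after removal of both means.

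Txnrd1 and Srxn1 had an r of 0.524 (permutation p = 0.00669, adjusted 0.00937) and a rho of 0.266 (p = 0.208), and without A2 and C2 r was 0.26, so the relation rests on those samples. It was 0.0184 to 0.537 within letters, and 0.653 after removal of letter and number means (adjusted permutation p = 0.00444). That permutation treated the values left after removal as freely exchangeable, so its p can be too small. After removal, r was not computed without A2 and C2. For Nqo1 and Txnrd1 r was -0.107 and rho 0.0296 (permutation p = 0.637 and 0.893, adjusted 0.637 for r), -0.174 without A5 and B4, -0.594 to 0.395 within letters, and -0.17 after removal of both means.

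Of 4 genes listed as AhR targets, Ahrr alone passed between G and the other letters together. Ahrr, the AhR repressor gene, had 45.4 to 97.8 normalized counts in G and 228 to 630 in the other letters, with a log2 fold change of -2.37 (limma adjusted p = 2.04e-06). Cyp1a1 and Cyp1b1 had log2 fold changes of -1.06 and -0.71 and did not pass (adjusted p = 0.502 and 0.471), and Tiparp had -0.14 (adjusted p = 0.784). Cyp1a1 had 12331, 12273 and 9198 normalized counts in A4, B4 and C4 and 1956 in G4. In number 5 it had 7049, 5852 and 5067 in A, B and C and 1080 in G. In number 2, by contrast, G2 had 4092 and the other 3 had 1982 to 4678. Cyp1b1 averaged 796 ± 119 in G and 1352 ± 446 over the other 18 samples.

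The genes with the pattern most like Nqo1, among 15904 others with a mean of at least 100 normalized counts, were Epb42 (r = 0.897 over 24 samples), Alox15 (0.896) and Bpgm (0.894). Epb42 encodes a protein of the red cell membrane skeleton, Alox15 a lipoxygenase found in reticulocytes, macrophages and airway epithelium, and Bpgm the enzyme that makes 2,3-bisphosphoglycerate in red cells. For the mean of the 10 genes they were Blvrb (0.892), biliverdin reductase B, then Rbm38 (0.865), an RNA-binding protein, and Cdc25b (0.854), a cell cycle phosphatase. Alox15 had 48612, 49083 and 40089 normalized counts in A4, B4 and C4, 25889, 18724 and 23405 in A5, B5 and C5, and 1466 to 4128 in the G samples. Summed levels of 7 red blood cell genes were 480113 to 1083377 in A, B and C of numbers 4 and 5, and 126091 to 313650 in the 6 G samples. Over all samples of a letter they ran from 156644 to 1083377 in A, 192441 to 868618 in B and 161918 to 773911 in C. In number 6, A, B and C had 780669, 435315 and 538662, and in number 5 they had 753229, 480113 and 714663. Nqo1 counts of A, B and C were 2948, 3037 and 3241 in number 6, and 4368, 4174 and 3590 in number 5. All 7 red blood cell genes were detected in each letter, and their part in the Nqo1 values was not tested.

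**Figure D4:**
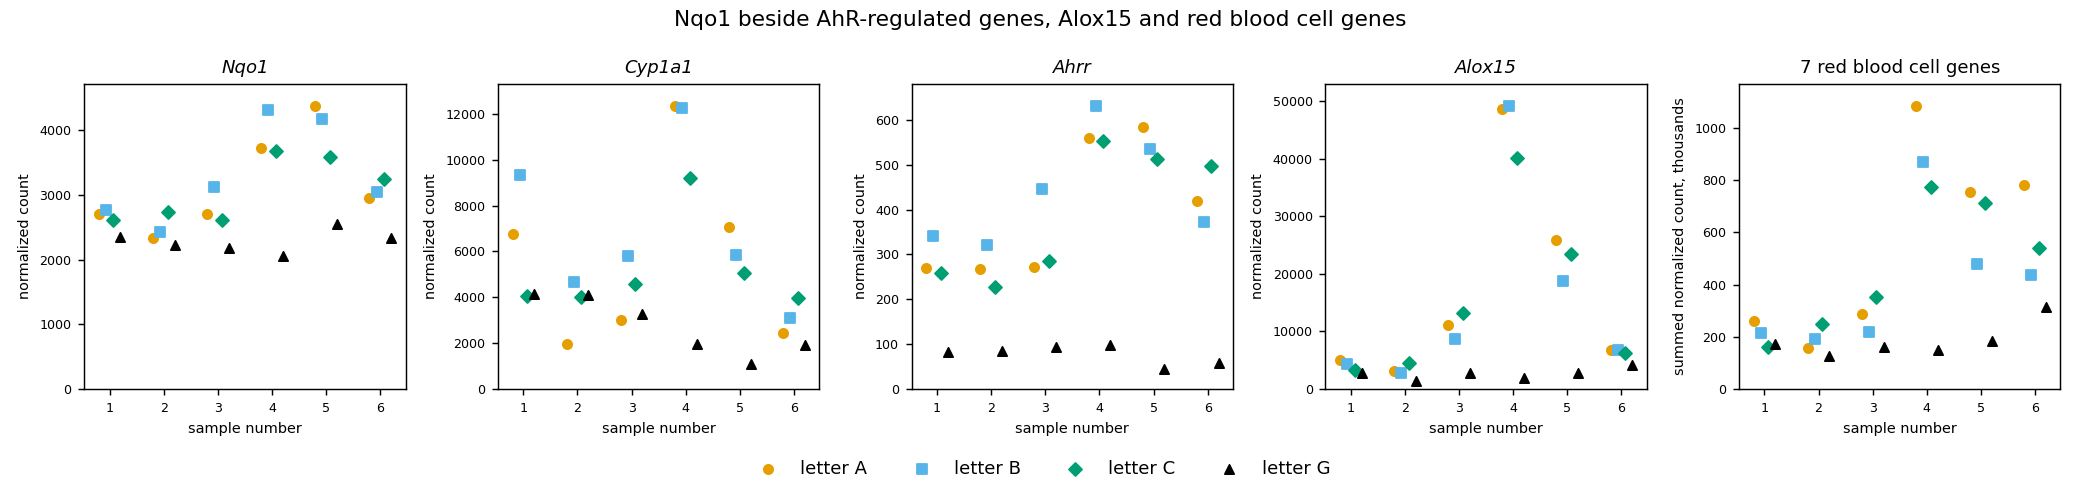
Normalized counts of Nqo1, Cyp1a1, Ahrr and Alox15 and the summed normalized count (rescaled axis) of 7 red blood cell genes, by sample number (horizontal axes) and letter (colour and shape), 1 point per sample. In numbers 4 and 5 the A, B and C samples lie above G in all 5 panels, and the Ahrr counts of G, 45.4 to 97.8, lie below the others in every number.

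A wider set of 82 genes of the same system was read in 4 lists. Over the letters, 0 of 82 passed limma's F test and 6 had an unadjusted p under 0.05, as did 3.91% of all genes. Against A, B and C together 56 of 82 were lower in G, where 50.4% of all genes were, with a median log2 fold change of -0.07 compared with -0.001 over all genes, and 0 passed, 8 being at an unadjusted p under 0.05, as were 6.47% of all genes. Of these 8, 7 were lower. By list, 8 of 16 regulators and partners of NRF2 were lower in G, 17 of 22 other glutathione and thioredoxin genes, 18 of 28 other conjugation and reduction enzymes, and 13 of 16 genes of NADPH, iron and haem metabolism.

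Over the numbers 44 of the 82 passed, where 31.5% of all genes did, and 10245 of 21922 genes with a mean of at least 10 normalized counts. The 44 were 9 of 16 regulators and partners, 11 of 22 glutathione and thioredoxin genes, 14 of 28 conjugation and reduction enzymes and 10 of 16 NADPH, iron and haem genes. The 6 with the smallest p-values fell into 2 patterns. Prdx5, a peroxiredoxin, had a mean of 18371 normalized counts in number 2 and 9457 in number 6 (limma adjusted p = 5.61e-06). Txnrd3, a thioredoxin reductase paralog, and Glrx, glutaredoxin, also had their highest mean in number 2, at 1340 and 1398, and their lowest in numbers 5 and 1, at 682 and 674 (adjusted p = 1.83e-05 and 5.32e-05). These 3 were thus high in the number in which Hmox1 was high. Gstp1 and Gstp2, near-identical transferase genes whose reads may be shared, were lowest in number 2 (4020 and 965 normalized counts) and highest in number 4 (6751 and 1444), with adjusted p-values of 1.25e-06 and 9.37e-05. Aox1, aldehyde oxidase, was lowest in number 2 (3112) and highest in number 5 (5655, adjusted p = 8.27e-06), as Gsta3 was.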

How the data were processed

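Lung mRNA was isolated and sequenced by an Illumina method, per the labels' protocols. The authors deposited 1 table of signal values, by form normalized read counts per gene. STAR and GRCm38 are named in the submitters' processing notes, without roles; the counting, annotation and normalization are not given in the sources used here. The values were not whole, so tests for raw counts were not used, and depth and counting error are unknown. Letters (groups) and numbers come from the titles.

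A linear model with 4 letter means was fitted to log2(value + 1) of all 24 samples with limma-trend (limma 3.58.1, R 4.3.3), over all 30667 genes, each of which passed a minimum mean of 0.5. Number effects were tested with letter and number as factors. P-values are two-sided, adjusted by Benjamini-Hochberg over all genes, threshold 0.05. Fold changes on this scale understate those of low genes. Correlation tests used 100000 permutations (scipy 1.17.1). The fits were tested on simulated data.

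Genes named are the 10 members, preset AhR genes, the 3 genes most like Nqo1 and like the members' mean, list genes past the threshold in a letter test (at most 6), and the 6 list genes with the smallest p over numbers. Members, lists and the contrast of G with A, B and C together were chosen with earlier results of these data known.

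Numbers were taken to pair samples where every same-number correlation of deviations exceeded 0.1 (21922 genes): 0.169 to 0.59 in B against A and 0.127 to 0.596 in C against B, from the data alone. In the other contrasts at least 1 of 6 did not. The 11 cell type lists included ciliated cell (22829 to 39127 summed normalized counts), cardiac muscle (591 to 60983) and proliferation genes (4842 to 18862). Alternatives covered pseudocount, scaling, filter, weights, the block and left-out samples.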

Additional observations from a re-analysis of the deposited data

Results flagged for a closer look

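Among 40 sets of 6 values (10 genes in 4 letters), 3 values, in 2 samples, lay far from the others of their letter, by a gap that took 0.639 to 0.827 of the range of the 6 values, past Dixon's 95% limit; chance gives about 1 in 20, or 2 of 40. Hmox1 had 8048 normalized counts in A2, where the next A sample had 4122. Txnrd1 had 8901 normalized counts in A2, where the next had 5617, and 4480 in G2, where the next lowest G sample had 5131. Both samples are numbered 2, and A2 also had the highest summed neutrophil genes (42577 normalized counts).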

How the results depend on the processing

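With the sample number as a replicate block, 2 of the 10 genes passed in G against A, Nfe2l2 (limma adjusted p = 0.0076) and Nqo1 (0.0263), where 391 of 30667 genes passed, and 2 also in G against the other letters together, Nqo1 (0.00845) and Nfe2l2 (0.0159), where 200 did. Of the 82 further genes 3 passed in the latter, against 0. The labels state no pairing, and not every same-number correlation of these contrasts was over 0.1: in G against A they were -0.0452 to 0.486, with 4 of 6 over it and 3 of 6 samples best matched to their own number, in G against B 5 of 6 and 5 of 6, and in G against C 4 of 6 and 4 of 6. For the 3 letters together no such check was made. The block changed no other count of the 10 genes passing, pairs B against A and C against B included. Nqo1 kept its sign in G against the other letters in all 37 alternatives (-0.51 to -0.28), Nfe2l2 in 37 (-0.25 to -0.17) and Srxn1 in 37 (-0.40 to -0.27). Leaving out each of 24 samples gave 0 of the 10 genes passing in every letter contrast, where at most 4 of all genes did. Over the numbers, 5 to 8 of the 10 and 34 to 49 of the 82 passed in the 38 alternatives. The share of all genes passing also moved, from 7138 of 30644 without the samples numbered 4 and 5 to 10245 of 21922 at a mean of at least 10. Without a letter term Nfe2l2 (0.0684) and Nqo1 (0.0761) missed the threshold, and in A, B and C alone Txnrd1 passed (0.0437). Leaving out numbers 2, or 4 and 5, was chosen after seeing the data. Among correlations, with none of the causes tested, Txnrd1 with Srxn1 was 0.278 and Nqo1 with Txnrd1 turned to 0.117 without A2 and A4. Nfe2l2 with Nqo1 was 0.297 after removing letter means. In the replicate block, with letter and number means removed, Gclc with Gclm was 0.208, Nqo1 with Gclc 0.0304 and Nfe2l2 with Nqo1 0.386, which missed the threshold. DESeq2 was not run, as no raw counts were used, and other filters, pseudocounts and scalings left these counts of the 10 genes the same.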

Other observations

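Of the 82 further genes, 8 were at an unadjusted p under 0.05 in G against A, B and C together, and they are named here after their values were seen. The 7 lower ones had log2 fold changes of -0.67 (Fech, SE 0.20), -0.32 (Ugt1a7c, SE 0.14), -0.24 (Prdx2, SE 0.07), -0.22 (Idh1, SE 0.07), -0.20 (Akr1b8, SE 0.06), -0.18 (Blvrb, SE 0.06) and -0.12 (Slc48a1, SE 0.04), and Crebbp was higher by 0.12 (SE 0.05). None passed after adjustment (limma adjusted p = 0.471 to 0.703). Fech encodes the enzyme that inserts iron into haem, Blvrb biliverdin reductase B and Slc48a1 a haem transporter. In their list of 16 NADPH, iron and haem genes, 13 were lower in G, with a median log2 fold change of -0.11. Among the 3 that were higher, Hmox2 had 0.02 (SE 0.06) and Slc40a1 0.01 (SE 0.07).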
